A study of Mus musculus with 6 samples.

Results

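The genes described here are 10 genes of basophils and mast cells and their products: the proteases Prss34, Mcpt8 and Cpa3, the IgE receptor chains Fcer1a and Ms4a2, the transcription factor Gata2, the histamine-forming enzyme Hdc, the surface receptor Cd200r3, and the cytokines Il4 and Il6. They are 10 of the 25690 gene symbols in the series and were selected on their higher levels in the Myc-deficient libraries of these same data, so their values, fold changes and calls are given as a description and no p-value is printed for them. The sequenced RNA came from immature, CD27SP NK cells, which were sorted from BM as NK1.1+, CD27+, CD11b− and CD3/19− cells. In this gate, no marker of basophils or mast cells was named. There were 3 libraries of Ncr1cre Myc wt/wt mice, the controls, and 3 of Myc-deficient Ncr1cre Myc fl/fl mice, numbered 1, 2 and 4 in either genotype (wt/wt and fl/fl below). Both genotypes carry the Cre recombinase, which is expressed from the Ncr1 locus and so acts once a cell begins to express NKp46. Only the fl/fl mice carry the Myc alleles that it can delete. The mice were backcrossed onto C57BL/6, were sex- and age-matched, and no treatment is given in the labels. Whether each library came from a different mouse is not given in the labels. The SDs below therefore measure the spread between libraries, and the standard errors also treat each library as the unit.

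Basophils and mast cells are granulocytes that bind IgE through the high-affinity receptor FceRI, and on its crosslinking they release granules that hold histamine and proteases. Basophils are short-lived cells that finish their maturation in the BM and circulate, whereas mast cells mature in tissues. Both depend on the transcription factor GATA2, and basophils are a known source of IL-4 and IL-6 on activation.

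Estimated counts summed to between 54550907 and 64962491 in 5 libraries and to 8101219 in wt/wt library 1, in which 3 counts of a gene amount to 0.370 counts per Mio (CPM). CPM values below were normalised by TMM, which corrects for library composition, and 15474 genes had enough counts for a test with edgeR. Myc itself had 182.1 ± 16.5 CPM in wt/wt and 67.7 ± 8.02 CPM in fl/fl libraries (SD, n = 3 each), with adjusted p = 0.00219 in edgeR and a log2 fold change of −1.43. The 12 NK cell markers, which check the cell type label, were all tested and none passed the threshold. They summed to 13450 to 13540 CPM in wt/wt and 15030 to 16740 CPM in fl/fl libraries. Among them the cytotoxic granule gene Gzmb stood apart in fl/fl library 4, with 1492 CPM as compared with 471.8 and 359.7 CPM in fl/fl libraries 1 and 2, and Prf1 was 2.29 times their mean there. To pass the threshold, a gene needed an adjusted p (Benjamini-Hochberg) under 0.01 together with a log2 fold change of 0.5 or more in either direction.

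Promoter sequences were read for all 10 genes from RefSeq (build GRCm38.p6), as the 250 bases upstream of each annotated start, because the selection of the genes made no use of sequence. GATA factors bind to short motifs, and the motif AGATAA, the motif TGATAA, the motif AGATAG and the motif TGATAG were searched on both strands. At least 1 such motif stood in 8 of the 12 windows, which belong to 8 of the 10 genes, as compared with 26.5% of all 32851 windows of this length. None of the 12 windows held the E-box CACGTG, which is found in 6.02% of all windows and is bound by MYC with its partner. A match gives the letters only and does not show that a factor binds. The windows of 6 genes are shown because they span the range found, from none in Mcpt8 to 3 in Ms4a2 and in Cd200r3. The GATA motifs are in capitals, and TTATCT and TTATCA are AGATAA and TGATAA read on the other strand.
Prss34 (chr17:25298144-25298393, plus strand): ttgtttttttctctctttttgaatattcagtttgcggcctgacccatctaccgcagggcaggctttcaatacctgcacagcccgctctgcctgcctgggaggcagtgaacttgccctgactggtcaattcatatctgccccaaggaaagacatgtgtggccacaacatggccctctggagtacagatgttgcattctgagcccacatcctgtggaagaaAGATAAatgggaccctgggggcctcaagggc
Mcpt8 (chr14:56085198-56085447, minus strand): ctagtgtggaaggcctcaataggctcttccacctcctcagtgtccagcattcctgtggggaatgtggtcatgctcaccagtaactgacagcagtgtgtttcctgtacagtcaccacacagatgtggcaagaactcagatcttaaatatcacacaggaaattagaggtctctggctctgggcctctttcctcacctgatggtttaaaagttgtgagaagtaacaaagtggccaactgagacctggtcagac
Cpa3 (chr3:20242182-20242431, minus strand): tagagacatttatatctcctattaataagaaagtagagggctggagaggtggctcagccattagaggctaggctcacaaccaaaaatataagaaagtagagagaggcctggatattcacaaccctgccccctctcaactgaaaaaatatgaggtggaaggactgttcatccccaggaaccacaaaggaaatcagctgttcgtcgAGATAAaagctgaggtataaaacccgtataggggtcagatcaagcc
Ms4a2 (chr19:11623720-11623969, minus strand): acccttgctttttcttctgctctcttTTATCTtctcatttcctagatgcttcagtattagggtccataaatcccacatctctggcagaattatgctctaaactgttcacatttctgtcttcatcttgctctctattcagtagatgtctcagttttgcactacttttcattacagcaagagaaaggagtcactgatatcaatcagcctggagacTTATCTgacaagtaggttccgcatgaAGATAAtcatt
Cd200r3 (chr16:44943428-44943677, plus strand): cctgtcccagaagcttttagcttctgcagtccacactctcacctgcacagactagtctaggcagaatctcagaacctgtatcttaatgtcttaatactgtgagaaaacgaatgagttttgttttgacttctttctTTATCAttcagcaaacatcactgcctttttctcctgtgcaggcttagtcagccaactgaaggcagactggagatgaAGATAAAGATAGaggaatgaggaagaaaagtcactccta
Il6 (chr5:30012864-30013113, plus strand): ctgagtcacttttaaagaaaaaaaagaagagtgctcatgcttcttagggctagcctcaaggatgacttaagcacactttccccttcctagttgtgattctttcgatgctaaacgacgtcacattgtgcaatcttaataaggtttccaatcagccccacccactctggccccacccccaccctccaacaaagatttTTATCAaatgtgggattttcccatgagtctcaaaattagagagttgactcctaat
Prss34 and Cpa3 each had their AGATAA within the last 50 bases before the start, at 31 and 46 bases upstream. The 3 motifs of Ms4a2 lay 224, 37 and 11 bases upstream. In Cd200r3, an AGATAA and an AGATAG followed each other directly, and in Il6 the motif lay 55 bases upstream. Fcer1a, Hdc and the first of the Il4 windows also held 1 motif each, while both Gata2 windows and the second Il4 window held none.

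The 2 serine proteases of basophil granules were the most abundant of these transcripts in fl/fl libraries. Prss34 encodes the protease mMCP-11 and is annotated on chromosome 17 of GRCm38 (ENSMUSG00000056399.2, 25298394 to 25300165). It had 1.54, 3.0 and 3.93 CPM in wt/wt libraries 1, 2 and 4 and 149.4, 178.9 and 56.4 CPM in fl/fl libraries 1, 2 and 4. The lowest fl/fl library was thus 14.3 times the highest wt/wt library, and fl/fl library 4 was well below the other 2. The means were 2.83 ± 1.21 and 128.2 ± 63.9 CPM (SD, n = 3 each), a 45.4-fold ratio and a log2 fold change of 5.21 (standard error 0.44), which was 6.09 without the libraries numbered 4. Mcpt8 encodes the basophil protease mMCP-8 (ENSMUSG00000022157.8, chromosome 14, 56082166 to 56085273). Its levels were 0.513, 1.79 and 1.32 CPM in wt/wt and 53.0, 67.4 and 23.9 CPM in fl/fl libraries 1, 2 and 4. The groups did not overlap, and again fl/fl library 4 was the lowest of its group. The wt/wt library 1 value rests on 4 counts, for which the exact 95% binomial interval, before TMM, runs from 0.135 to 1.26 CPM. It covers counting error only. The log2 fold change of Mcpt8 was 5.01 (standard error 0.35).

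Cpa3, the carboxypeptidase of mast cell and basophil granules (ENSMUSG00000001865.2, chromosome 3, 20215620 to 20242181), showed a smaller difference on a higher wt/wt level. Its values were 6.02, 4.83 and 4.50 CPM in wt/wt libraries and 27.2, 27.3 and 10.8 CPM in fl/fl libraries 1, 2 and 4. The fl/fl libraries 1 and 2 were alike, and library 4 lay at 1.79 times the highest wt/wt library. The ratio of the means was 4.25, and the log2 fold change was 1.97 (standard error 0.27).

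The IgE receptor is built from an alpha chain that binds IgE, a beta chain that amplifies the signal, and a gamma chain shared with other receptors. Fcer1a, the alpha chain (ENSMUSG00000005339.10, chromosome 1, 173221284 to 173227214), had 0, 12 and 25 counts in wt/wt libraries 1, 2 and 4 and 349, 588 and 145 counts in fl/fl libraries. These were 0, 0.213 and 0.383 CPM as compared with 5.93, 10.8 and 2.44 CPM. The 0 counts in the shallow wt/wt library have a 95% counting interval up to 0.455 CPM before TMM. The fl/fl libraries spread 4.44-fold, the widest range of the 10 genes. The log2 fold change was 4.41 (standard error 0.67), and it was 3.64 without the libraries numbered 2 and 5.88 without those numbered 4. Ms4a2, the beta chain (ENSMUSG00000024680.12, chromosome 19, 11615523 to 11623719), had 1.28, 2.49 and 1.85 CPM in wt/wt and 8.37, 11.9 and 5.19 CPM in fl/fl libraries. It was already detected with 140 and 121 counts in wt/wt libraries 2 and 4, where Fcer1a had 12 and 25. Its log2 fold change was 2.08 (standard error 0.31). The gamma chain gene Fcer1g, which NK cells also use for their own receptors, was no member and had 1148 ± 170.0 and 1297 ± 115.2 CPM (SD, n = 3 each), which did not pass the test (log2 fold change 0.18, adjusted p = 0.56, edgeR).

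Gata2, a transcription factor of haematopoietic progenitors, mast cells and basophils (ENSMUSG00000015053.14, chromosome 6, 88193891 to 88207032), had 2.82, 3.54 and 3.06 CPM in wt/wt and 18.4, 21.9 and 11.2 CPM in fl/fl libraries 1, 2 and 4. Its wt/wt libraries were close to each other, and every fl/fl library was at least 3.15 times the highest of them. The log2 fold change was 2.37 (standard error 0.25). Hdc, histidine decarboxylase (ENSMUSG00000027360.5, chromosome 2, 126593667 to 126619299), had 2.43, 2.54 and 2.48 CPM in wt/wt and 11.3, 12.7 and 10.6 CPM in fl/fl libraries. This was the most even of the 10 genes, with a 1.20-fold range over the fl/fl libraries and a log2 fold change of 2.21 (standard error 0.24). Cd200r3, a receptor of basophils and mast cells that pairs with the adaptor DAP12 (ENSMUSG00000036172.17, chromosome 16, 44943678 to 44981380), had 2, 8 and 21 counts in wt/wt and 170, 282 and 92 counts in fl/fl libraries. Its fl/fl values of 2.89, 5.18 and 1.55 CPM lay above wt/wt values of 0.256, 0.142 and 0.322 CPM, and the log2 fold change was 3.59 (standard error 0.61), or 2.67 without the libraries numbered 2 and 4.64 without those numbered 4. The 2 counts in wt/wt library 1 have a 95% counting interval up to 0.892 CPM.

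Both cytokines were near the limit of detection in wt/wt libraries. Il6 (ENSMUSG00000025746.11, chromosome 5, 30013114 to 30019981) had 1, 0 and 0 counts in wt/wt libraries 1, 2 and 4 and 58, 72 and 43 counts in fl/fl libraries. Its fl/fl levels were 0.986, 1.32 and 0.722 CPM. In wt/wt libraries 2 and 4, the 0 counts have 95% counting intervals up to 0.0669 and 0.0568 CPM before TMM. The 1 count in wt/wt library 1 has a 95% counting interval up to 0.688 CPM, which reaches into that of fl/fl library 4 (0.517 to 0.962 CPM). Pooled over libraries, 173 counts as compared with 1 gave a ratio of 128.5, whose 95% counting interval from 22.8 to 5106 shows how little the single count fixes it. Il4 (ENSMUSG00000000869.12, chromosome 11, 53602982 to 53618669) had 0, 4 and 8 counts in wt/wt and 33, 22 and 22 counts in fl/fl libraries. The pooled ratio was 4.77 (95% counting interval 2.58 to 9.63), and the fl/fl values of 0.561, 0.404 and 0.370 CPM lay above those of wt/wt libraries, of which the highest was 0.123 CPM. The 0 counts in the shallow wt/wt library 1 have a 95% counting interval up to 0.455 CPM before TMM. This limit lies above fl/fl libraries 2 and 4 (0.403 and 0.365 CPM before TMM), and only fl/fl library 1 (0.570 CPM) exceeds it.

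**Figure D1:**
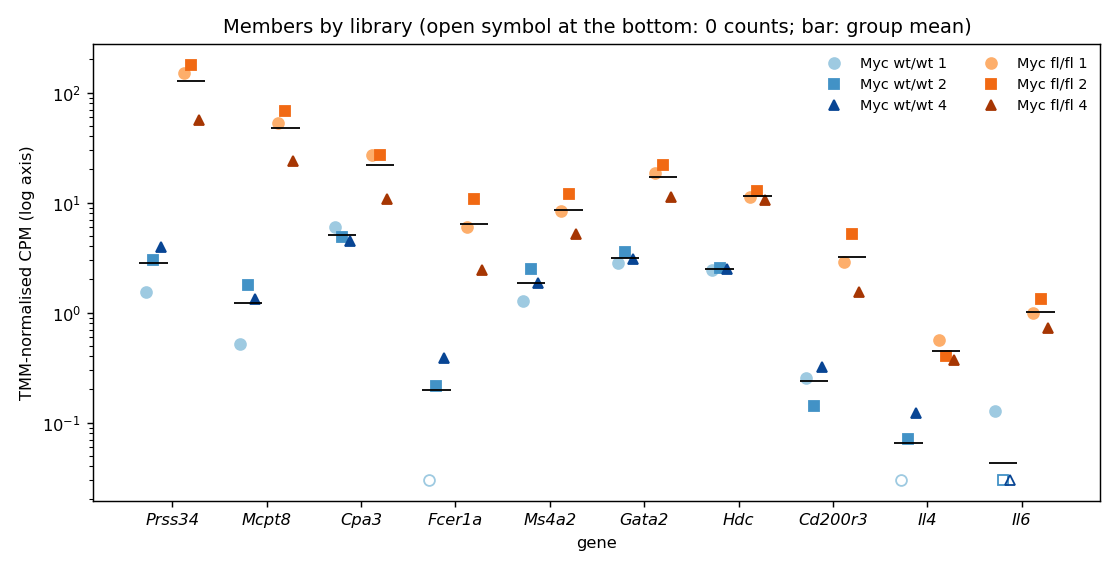
TMM-normalised CPM (log axis) of the 10 genes in each of the 6 libraries, with blue symbols for wt/wt, orange symbols for fl/fl, a bar at each group mean and open symbols at the bottom for 0 counts. In every gene the 3 fl/fl libraries lie above the 3 wt/wt libraries, and fl/fl library 4 (dark triangle) is the lowest of the fl/fl libraries.

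The plot of CPM by library shows the 10 genes side by side. All 10 genes were tested, and 9 were past the threshold and higher in fl/fl libraries, as compared with 1.18% of the 15474 tested genes in that direction. None was lower, as compared with 0.782% of all. Since this contrast chose the genes, nothing is read from these counts. Cd200r3 and Il6 were the members just inside the threshold, and Il4, the 1 member outside it (log2 fold change 2.28, standard error 0.76), did not pass at an adjusted p of 0.05 either. The fl/fl libraries did not overlap the wt/wt libraries in 10 of 10 genes, as compared with 16.5% of all tested genes with fl/fl above wt/wt. This reads low counts as exact levels. In wt/wt library 1, the counting limit of Il4 given above lay above fl/fl libraries 2 and 4, and the Il6 interval reached into that of fl/fl library 4. The filter on low counts asked for 0.177 CPM in 3 libraries, and Fcer1a, Cd200r3, Il4 and Il6 met it through the fl/fl libraries. The count of 9 fell to 3 when both libraries numbered 1 were left out and to 3 when both numbered 2 were left out. Without wt/wt library 1 alone, in a fit without the replicate block, it was 5, and without fl/fl library 4 alone it was 8. With library size only in place of TMM it was 4, and with offsets from effective lengths it was 3.

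Whether the genes moved together was looked at across the 3 fl/fl libraries. In 9 of the 10 genes the order was library 2, then 1, then 4, as compared with 18.7% of all tested genes, and Il4 had the order 1, 2, 4. The order of 8 genes was 2, 1, 4 when TPM or CPM scaled by library size alone was used. Library 4 was lowest in all 10 genes, and in 34.0% of tested genes. These ranks ignore counting error. Il4 had 22 counts in both fl/fl libraries 2 and 4, and Cpa3 had 27.3 and 27.2 CPM in libraries 2 and 1. The 95% counting intervals of Hdc overlapped between libraries 1 and 4 (10.6 to 12.4 and 9.71 to 11.4 CPM before TMM). With 3 libraries, no correlation is given. Relative to the mean of libraries 1 and 2, the library 4 level had a median of 0.455 over the 10 genes, from 0.291 in Fcer1a to 0.884 in Hdc. Over all tested genes this median was 0.995, and over the 183 genes that were higher past the threshold it was 1.16.

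Marker lists of other cell types differed in how they ran over the same libraries. The 8 cell type genes, without the cytokines, summed to 276.5, 335.9 and 122.0 CPM in fl/fl libraries 1, 2 and 4 and to between 14.9 and 18.6 CPM in wt/wt libraries. The marker lists in which library 4 was lowest relative to the mean of libraries 1 and 2 were those of megakaryocytes and platelets (ratio 0.335), eosinophils (0.393), the globin genes (0.479) and stem and multipotent progenitors (0.608), followed by erythroid cells (0.796), monocytes (0.892) and plasmacytoid dendritic cells (0.939). The granulocyte-monocyte progenitor list ran the other way, with 584.7, 561.8 and 925.3 CPM in fl/fl libraries 1, 2 and 4 and 103.1 to 153.3 CPM in wt/wt libraries. In that list 5 of 7 tested genes were past the threshold, all higher (1.18% of all tested genes were), among them Mpo, the myeloperoxidase of neutrophil granules (88.4 ± 17.1 and 544.2 ± 152.0 CPM, SD, n = 3 each, adjusted p = 0.000162, edgeR). Basophils, eosinophils and neutrophils arise from related BM progenitors. The part that cells other than NK cells have in the levels of the 10 genes was not tested. In bulk RNA, more cells of a type and more RNA in each such cell cannot be told apart.

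**Figure D2:**
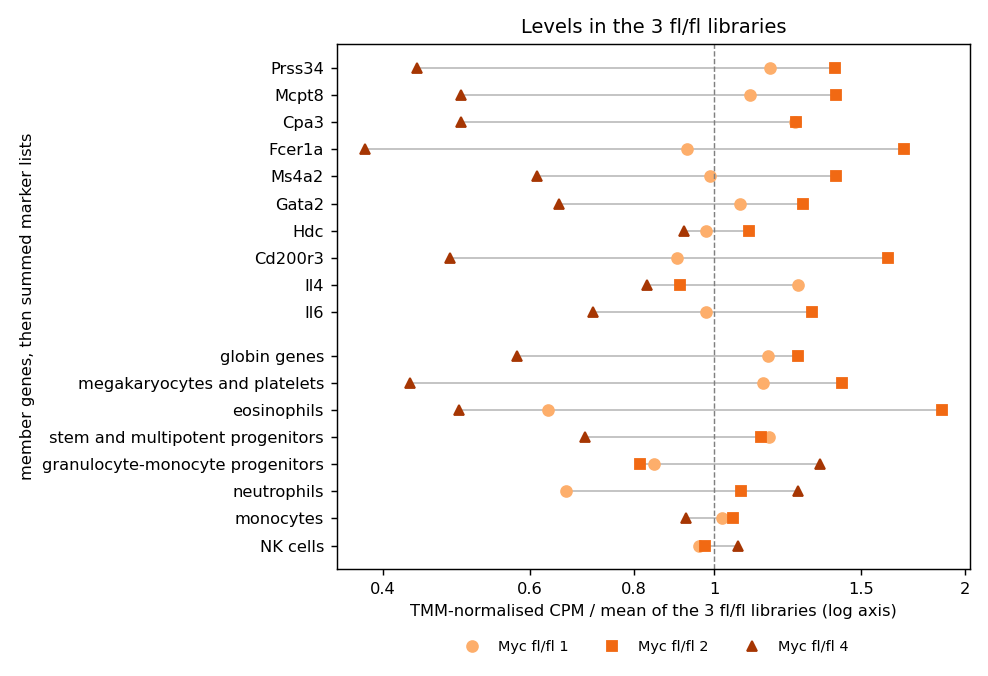
Level in each of the 3 fl/fl libraries divided by their mean (log axis), for the 10 genes and below them for the summed CPM of 8 marker lists, with 1 symbol for each library. Library 4 (dark triangle) is the lowest in all 10 genes and in the globin, megakaryocyte and platelet, eosinophil and stem cell lists, and the highest in the granulocyte-monocyte progenitor list.

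The plot of fl/fl libraries relative to their mean shows that the 10 genes spread along the same libraries but by unequal amounts. Their highest library exceeded their lowest by 1.20-fold in Hdc, 1.52-fold in Il4 and 1.83-fold in Il6, and by 3.17-fold in Prss34, 3.35-fold in Cd200r3 and 4.44-fold in Fcer1a.

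To compare levels between genes, TPM, which is scaled by transcript length, was used. In fl/fl libraries Prss34 had the highest TPM, at 212.4, 242.5 and 77.4, followed by Mcpt8 at 104.1, 126.5 and 45.2, Cpa3 at 28.4, 26.4 and 10.9, and Gata2 at 13.9, 17.0 and 8.44. This order held within each of the 3 libraries, although the ranges of Prss34 and Mcpt8 over libraries overlapped, as did those of Cpa3 and Gata2. Hdc (9.58 ± 2.48 TPM), Fcer1a (9.34 ± 6.02 TPM) and Ms4a2 (6.03 ± 1.92 TPM, SD, n = 3 each) overlapped in their ranges over libraries, but Hdc exceeded Ms4a2 within each of the 3 libraries. Cd200r3 followed at 3.55 ± 1.75 TPM, and Il4 and Il6 had 1.40 ± 0.34 and 0.775 ± 0.207 TPM. The order of these 2 is uncertain, since Il6 had more counts than Il4 in each fl/fl library and the TPM depends on how few reads were divided among transcripts, with 46.3% of fl/fl counts on the leading Il4 transcript.

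The make-up of the 8 cell type genes differed between genotypes. Prss34 took 54.9%, 53.5% and 48.8% of their summed TPM in fl/fl libraries 1, 2 and 4 and 13.5%, 21.1% and 30.2% in wt/wt libraries. Cpa3 moved the other way, from 39.9%, 24.9% and 24.5% in wt/wt to 7.34%, 5.83% and 6.87% in fl/fl libraries. The Mcpt8 share was 26.9% to 28.5% in fl/fl libraries and 5.70%, 17.6% and 13.8% in wt/wt libraries, and none of these 3 shares overlapped between genotypes. These shares follow from the same values that chose the genes and are descriptive.

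**Figure D3:**
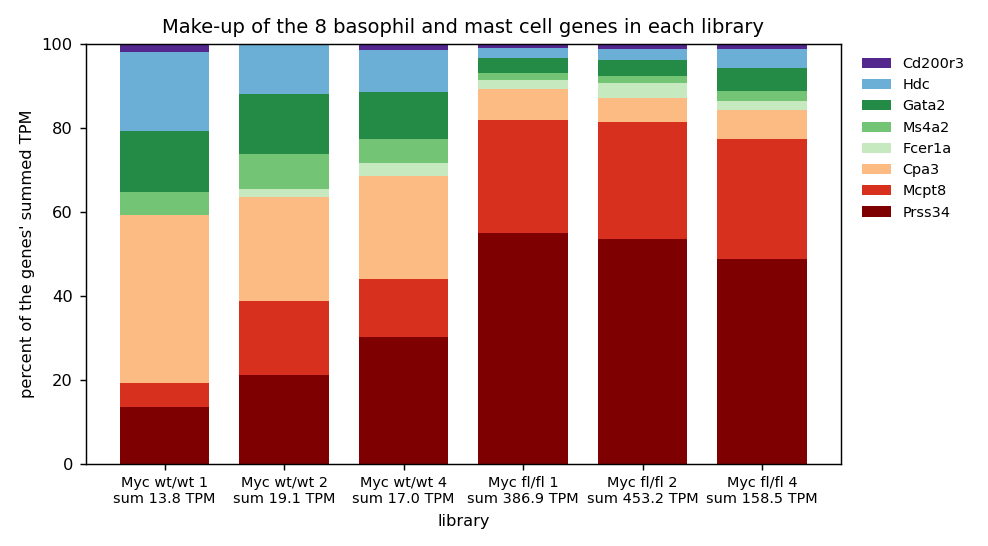
Percent of the summed TPM of the 8 basophil and mast cell genes taken by each gene, in stacked bars for the 6 libraries, with the summed TPM under each bar. Prss34 and Mcpt8 fill most of each fl/fl bar, whereas Cpa3, Gata2 and Hdc hold larger shares of the wt/wt bars, whose sums are 13.8 to 19.1 TPM.

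The stacked bars show the make-up of the 3 fl/fl libraries, whose sums ran from 158.5 to 453.2 TPM. Ratios of TPM between pairs of genes within a library varied by unequal amounts. The ratio of Prss34 to Mcpt8 was 1.71 to 2.04 in fl/fl and 1.20 to 2.37 in wt/wt libraries, so it overlapped. The ratio of Ms4a2 to Gata2 was 0.448 to 0.474 in fl/fl and 0.385 to 0.594 in wt/wt libraries. By contrast, the ratio of Prss34 to Cpa3 was 7.11 to 9.18 in fl/fl and 0.339 to 1.23 in wt/wt libraries. Of the 28 pairs of cell type genes, 17 had ratios that did not overlap between genotypes, counting the libraries in which both genes had over 3 counts. Pairs with Fcer1a or Cd200r3 had only 2 such wt/wt libraries. The genes were chosen on this contrast and no share over other gene pairs was computed, so nothing is read from this count. Within the fl/fl libraries, the 28 pairs varied 1.56-fold in the median (1.06- to 2.61-fold). The range was least for Ms4a2 to Gata2 and most for Fcer1a to Hdc, at 0.490 to 1.28. In fl/fl libraries, the ratio of Gata2 to Il6 was 15.4 to 17.9 and that of Ms4a2 to Il6 was 7.12 to 8.01, whereas that of Prss34 to Il6 ran from 141.4 to 257.0. No such ratio can be given for wt/wt libraries, which held at most 1 Il6 count.

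The counts of a gene are divided among its transcripts by estimation, which matters for the TPM of genes with few reads. Prss34 has 1 annotated transcript. The leading transcript took 99.4% of Cpa3 counts and 99.1% of Fcer1a counts in fl/fl libraries, 88.8% for Gata2 and 74.5% for Mcpt8. The leading Hdc transcript took 82.1% in fl/fl and 53.4% in wt/wt libraries. In Cd200r3, with 10 annotated transcripts, it took only 30.8% of fl/fl counts, so the Cd200r3 TPM is uncertain.

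Other genes of basophils and mast cells were taken from 7 lists of 107 genes that hold no member, of which 77 were tested, 18 were higher and 1 was lower past the threshold. Their median log2 fold change was 0.61, as compared with 0.02 over all tested genes, of which 1.18% were higher and 0.782% lower. The 18 became 4 without the libraries numbered 1 and 6 without those numbered 2, and the 1 lower gene, Cma1, did not pass without either pair. Among 18 other basophil genes, 17 were tested, 5 were higher and none was lower. These were Csf2rb, the shared beta chain of the IL-3 receptor (0.700 ± 0.585 to 5.83 ± 0.646 CPM, SD, n = 3 each, adjusted p = 0.00825, edgeR), the granule membrane protein Cd63, the leukotriene-forming Alox5 and its partner Alox5ap, and the inhibitory receptor Lilrb4a. Of these 5, Cd63, Alox5 and Alox5ap were lowest in fl/fl library 4. By contrast, Csf2rb was lowest in library 2 (6.56, 5.33 and 5.61 CPM in fl/fl libraries 1, 2 and 4). Lilrb4a was highest in library 4 (174.4, 226.5 and 305.7 CPM). The alpha chain of the IL-3 receptor, Il3ra, had 7.42 ± 3.23 and 4.26 ± 0.694 CPM (log2 fold change −0.74, adjusted p = 0.14, edgeR). Il18rap, Cd9 and Itga2, which NK cells express as well, did not pass, at log2 fold changes of −0.24, 0.10 and −0.55.

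The mast cell list was mostly at or near 0. Of its 17 genes, 10 had at most 3 counts in every library and 6 of these had 0 throughout, namely the proteases Mcpt1, Mcpt2 and Mcpt4, the tryptases Tpsab1 and Tpsg1, and the receptor Mrgprb2. Tpsb2 and Mcpt9 had at most 1 count. Of 4 tested genes, Kit, the receptor for stem cell factor, which progenitors also carry, was higher (76.8 ± 11.4 to 188.3 ± 53.2 CPM, SD, n = 3 each, log2 fold change 1.26, adjusted p = 0.00608, edgeR). Its fl/fl values were 240.9, 189.3 and 134.6 CPM, again lowest in library 4. The chymase gene Cma1 was lower, from 17.0, 18.7 and 14.3 to 5.25, 5.68 and 3.39 CPM (log2 fold change −1.83, adjusted p = 0.00305, edgeR), and Ndst2 did not pass.

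None of 17 tested genes of FceRI signalling, among them Fcer1g, Rac2 and Fyn, passed the threshold in either direction. Among 17 transcription factors, 7 were higher and none lower: Gata1, Spi1, Lmo2, Nfe2, Cebpb, Bhlhe40 and Irf8. Gata1, which drives erythroid, mast cell and eosinophil genes, went from 1.70 ± 0.603 to 8.74 ± 1.32 CPM (SD, n = 3 each, log2 fold change 2.36, adjusted p = 0.00518, edgeR), whereas Irf8, a factor of monocytes and dendritic cells that NK cells use too, went from 269.3 ± 20.9 to 660.0 ± 93.9 CPM (log2 fold change 1.29, adjusted p = 0.00214, edgeR). Gata1 had 8.76, 10.1 and 7.41 CPM in fl/fl libraries 1, 2 and 4. Spi1, Lmo2 and Nfe2 were also lowest in library 4, whereas Cebpb, Bhlhe40 and Irf8 were highest there. Of 7 histamine genes 4 were tested (Hrh2, Slc18a2, Hrh4 and Hnmt) and none passed.

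Of 15 type 2 and growth factor cytokines and chemokines, 6 were tested, and Tnf and Ccl4 were higher. The type 2 cytokines that lie beside Il4 were near 0, with at most 4 counts of Il13 and 3 of Il5 in any library, and Il9, Il3 and Il31 had none. Ccl4, which NK cells also make, had 176.9 ± 53.0 and 384.9 ± 157.1 CPM (SD, n = 3 each, adjusted p = 0.00397, edgeR), and Tnf had 14.1 ± 3.0 and 34.6 ± 6.79 CPM (adjusted p = 0.00389, edgeR). Among 16 genes of the receptors and families of IL-4 and IL-6, 12 were tested and 3 were higher: Socs3, a feedback inhibitor induced by IL-6-type cytokines, and the family cytokines Lif and Osm. Socs3 had 129.6, 136.2 and 211.7 CPM in fl/fl libraries and 30.0, 62.7 and 56.2 CPM in wt/wt libraries (log2 fold change 1.71, adjusted p = 0.00257, edgeR). It was thus highest in library 4, where Il6 was lowest. The receptor genes Il6ra and Il6st did not pass (log2 fold changes 0.25 and 0.18), nor did Il2rg, Stat6, Stat3 and Il4ra.

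**Figure D4:**
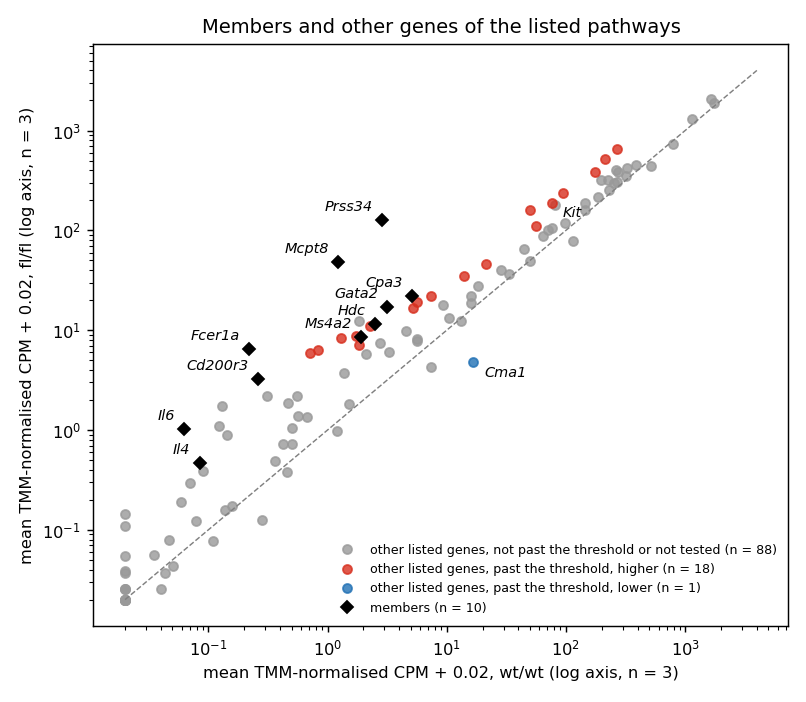
Mean TMM-normalised CPM with 0.02 added, in wt/wt (horizontal, log axis) and fl/fl libraries (vertical, log axis), n = 3 each, for the 10 members (black) and the 107 other listed genes, coloured by whether they passed the threshold. The members lie above the dashed line of equal levels, Prss34 and Mcpt8 farthest, whereas most of the listed genes lie near it and Cma1 lies below.

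The plot of group means sets the members beside the other listed genes, of which 18 are marked as higher and 1 as lower. The marker lists of other cells, which move beside the members, were counted in the same way. Genes past the threshold, all of them higher, as compared with 1.18% of all tested genes, numbered 4 of 7 tested for monocytes (Csf1r, Ly6c2, F13a1 and Lyz2) and 1 each for neutrophils (Retnlg, of 9 tested), eosinophils (Prg2, of 3), stem and multipotent progenitors (Cd34, of 5), plasmacytoid dendritic cells (Siglech, of 6) and conventional dendritic cells (Itgax, of 7). None of the genes for megakaryocytes and platelets, B cells, T cells, ILC2 or plasma cells passed. The eosinophil gene Prg2, which basophils and mast cells can also express, had 2.31, 7.96 and 1.26 CPM in fl/fl libraries 1, 2 and 4, the order of the members.

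The position of the members in the genome was not used to choose them. Of 94 protein-coding genes that start within 200 kb of a member, 49 were tested, 2 were higher and 1 was lower, as compared with 1.18% and 0.782% of all tested genes. Without the libraries numbered 1, 1 was higher and none was lower. Ctsg, cathepsin G of neutrophil and monocyte precursors, starts 17.3 kb from Mcpt8 and had a log2 fold change of 2.70 (adjusted p = 0.000647, edgeR), while Cma1 in the same chymase locus was the one that fell. Ms4a3, a gene of granulocyte-monocyte progenitors, starts 17.1 kb from Ms4a2 and had a log2 fold change of 3.13 (adjusted p = 0.00266, edgeR). Both Ctsg and Ms4a3 were highest in fl/fl library 4 (34.7 and 10.3 CPM), in which Mcpt8 and Ms4a2 were lowest. Near Prss34, the tryptase genes Tpsab1, Tpsb2 and Tpsg1 had at most 1 count. Gzmd and Gzme, which lie near Mcpt8 and were singled out after their values were seen, had 33.5 and 13.2 CPM in fl/fl library 4 and no count in the other 5 libraries.

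The genes whose pattern was nearest to that of the 8 cell type genes were found by the root mean square difference over the 6 libraries between centred log2 values, among 15464 tested genes that are no members. The nearest were Gm37534 (0.370), Alox5 (0.378), Car1 (0.412), Ccl6 (0.420), Itga2b (0.440), I830077J02Rik (0.445), Muc13 (0.454) and Pf4 (0.457), as compared with a median of 1.51. Of these, Alox5 and Itga2b are in the basophil list, Car1 in the erythroid list and Pf4 in the list of megakaryocytes and platelets. Ccl6, a chemokine of myeloid cells, had 11.1, 14.8 and 2.40 CPM in fl/fl libraries 1, 2 and 4. Some members lay farther from the mean pattern, with 830 non-members nearer than Prss34 (1.17) and 268 nearer than Mcpt8 (0.967), and for Il4 and Il6 the 0.5 CPM added before taking logs limits the measure.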

How the data were processed

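For each of the 6 libraries, the authors deposited an estimated count (not normalized), a TPM value and an effective length, the transcript length corrected for fragment size, for every one of 100583 mouse transcripts. The columns deposited are those of kallisto, whereas the methods name Salmon and GRCh38, and the identifiers are of mouse. The library kit was SMART-Seq v4, and no strand setting is given in the sources used here. Estimated counts and TPM were summed by symbol through GENCODE M21 (GRCm38, 100239 transcripts matched, 0.129% to 0.169% of counts unmatched). Counts were rounded and filtered by filterByExpr. After TMM normalization, genotypes were tested in edgeR (quasi-likelihood, 4.0.16, R 4.3.3), blocking on replicate number, since the study describes paired analyses. P-values were adjusted by Benjamini-Hochberg over the 15474 genes tested. The standard error of a log2 fold change was its absolute value divided by the square root of the F statistic of this test. The dispersion in that statistic is moderated over all genes. The fits were tested on simulated data. Replicates differed by far more than counting noise (chi-square per degree of freedom 39.2 to 99.0). Intervals and floors cover counting error only.

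The members and lists were chosen with earlier results of these data known. Lists were 7 pathway and 14 marker lists. The count of the erythroid marker list is not reported here. Named were the members, listed genes past the threshold (up to 5 per list), up to 3 per list with the highest mean CPM, neighbouring genes past the threshold, and the 8 genes nearest in pattern (log2 of CPM + 0.5). The text names all 7 transcription factors past the threshold, beyond this rule, and other genes outside it, among them Il3ra and Itga2, were chosen after their values were seen. Alternatives were no block, DESeq2 (1.42.0), limma-trend (3.58.1), the largest adjusted p of the 3 tools, another threshold, 2 other filters, library size only, effective length offsets, and leaving out libraries. RefSeq promoter windows matched all 10 members.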

Additional observations from a re-analysis of the deposited data

How the results depend on the processing

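Log2 fold changes of the members kept their direction in all 115 refits (18 moved by more than 1 SD between replicates of log2(CPM + 0.5)), from 1.69 to 2.45 in Cpa3, 2.24 to 2.66 in Gata2, 2.07 to 2.27 in Hdc, 1.87 to 2.40 in Ms4a2, 4.71 to 5.55 in Mcpt8, 4.75 to 6.09 in Prss34, 3.64 to 5.88 in Fcer1a, 2.67 to 4.64 in Cd200r3, 1.99 to 2.91 in Il4 and 3.58 to 8.89 in Il6. The count of members past the threshold (9) was 9 without the replicate block and in DESeq2, 7 in limma-trend and by the largest adjusted p, 5 with at least 10 counts in every library (5 members then tested), 4 with library size only and 3 with effective length offsets. Leaving out a replicate number gave 3 to 8, and the alternatives chosen after seeing the data gave 5 without wt/wt library 1 and 8 without fl/fl library 4. The groups stayed apart in 10 of 10 members by TPM and library size only. Over all genes (183 higher, 121 lower) the counts were 182 lower without the block, 645 and 548 in DESeq2, 79 lower in limma-trend and by the largest adjusted p, 696 and 502 with adjusted p under 0.05 and any fold, 524 and 378 without a filter, 49 and 25 with library size only, 24 and 8 with offsets, 49 to 162 and 10 to 114 without a replicate number, 113 higher without wt/wt library 1, and 116 higher and 70 lower without fl/fl library 4. The 18 higher pathway genes became 30 in DESeq2, 31 at 0.05, 5 with library size only, 1 with offsets and 4 to 17 without a replicate number, and the 1 lower became 2 in DESeq2, 2 at 0.05, 0 with offsets and 0 to 1 without a number. Of the neighbours, the 2 higher became 4 in DESeq2, 4 at 0.05, 6 without a filter, 1 with at least 10 counts, 1 with offsets and 1 to 3 without a number, and the 1 lower became 2 without the block, in DESeq2, at 0.05 and without a filter, 0 with offsets and 0 to 1 without a number. The cause of these moves was not tested. The data do not show whether equal numbers pair the libraries: deviations from the group means correlated at −0.00539, −0.0666 and 0.0841 for numbers 1, 2 and 4, and not every library was most like its own number. The depth of wt/wt library 1 (8101219 counts) limits what can be said of Fcer1a, Cd200r3, Il4 and Il6.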
